A study of Sus scrofa with 8 samples.

Results

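The genes described here are the interleukins, their receptors and a few proteins named after them, read in whole blood of miniature pigs by an Agilent 1-colour microarray. A probe belonged to the set when its description in the scanner files contained the word interleukin, which held for 38 of 43603 probes and 35 genes. They fall into 23 probes for ligands (21 genes), 11 for receptor chains (10 genes) and 4 for signalling proteins. That last class also takes in proteins whose description only mentions an interleukin. Blood came from 8 female Clawn miniature pigs aged 8 to 9 months, with 1 array per animal. The 4 control animals received standard dry feed, and the 4 SDW animals received a mix, equal by weight, of that feed, water and the distillery by-product shochu distilled water (SDW). The labels also call all 8 conventional animals. The sources differ on the length of feeding, which is 12 weeks in the design text and 14 to 17 weeks in the descriptions of the samples. The described weeks follow the replicate number, from 14 for animal 1 to 17 for animal 4 of each diet. Whether they are true durations is not known. A level is the log2 spot intensity minus that of the array's own 75th percentile, so 0 is the brightness of that percentile, and a difference is the SDW mean minus the control mean on that log2 scale.

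Interleukins are small secreted proteins by which white blood cells instruct each other, and most are made only after a cell has been stimulated. They bind receptor chains at the cell surface, several of which are shared between cytokines: IL2RG serves the IL2 family, IL6ST (gp130) the IL6 family, and IL4R both IL4 and IL13. The cytokine receptors act mainly through Janus kinases and STAT transcription factors, while receptors of the IL1 family act through the adaptor MYD88 and IRAK kinases, and the protease CASP1 cuts the inactive precursors of IL1B and IL18.

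Each value speaks for a stretch of 60 bases only, so 6 probes are printed for the reader to see what was measured. The first 4 target genes measured on all 8 arrays that the results below return to, and the last 2 target genes detected on none. Sequences are as in the scanner files, 5′ to 3′, and the capitals in IRAK4 and IL13RA1 mark a stop codon that closes a reading frame open through the rest of the probe.
IL18: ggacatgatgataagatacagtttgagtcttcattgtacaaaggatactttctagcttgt
IL6R: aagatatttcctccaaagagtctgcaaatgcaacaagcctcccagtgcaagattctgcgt
CASP1: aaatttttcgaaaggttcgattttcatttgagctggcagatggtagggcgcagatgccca
IRAK4: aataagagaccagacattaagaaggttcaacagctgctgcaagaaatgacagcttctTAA
IL6: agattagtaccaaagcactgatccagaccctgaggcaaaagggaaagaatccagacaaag
IL13RA1: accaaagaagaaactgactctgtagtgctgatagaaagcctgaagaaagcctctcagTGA

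Detection differed between the classes. All 4 probes of the signalling class were well above background, the scanner software's own call, on all 8 arrays. Among them the CASP13-like and IL2/BCM-like probes are partial matches only, at 25% and 16%. Of the 11 receptor probes 5 (45.5%) reached that call on at least 4 arrays, and of the 23 ligand probes 6 (26.1%) did. Together 15 of the 38 probes (39.5%) did so, close to the 39.8% of all 43603 probes, and 19 (50%) were below that call on every array, against 49.3% of all probes. Between 13 and 18 of the 38 probes were detected on an array, with a mean of 13.8 ± 0.957 for controls and 15.8 ± 2.22 for SDW animals (SD, n = 4 each), and the ranges overlapped. Over all 43603 probes the mean count was also higher in SDW animals, at 17700 ± 1170 against 16800 ± 1290 in controls (SD, n = 4 each).

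**Figure D1:**
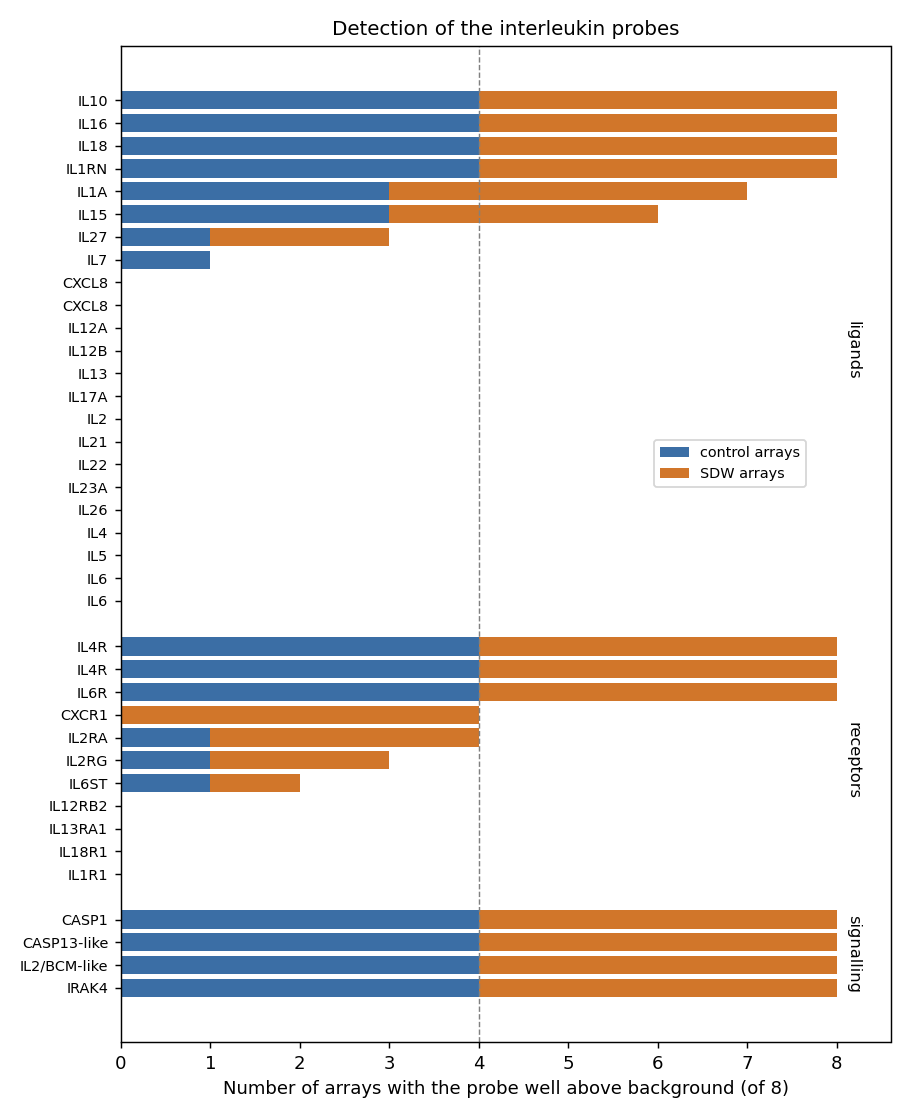
Each bar gives the number of arrays (of 8) on which a probe was well above background, split into control and SDW arrays, for the 38 interleukin probes by class. The dashed line at 4 arrays is the minimum for testing, which 15 probes reached, and CXCR1 is the probe detected on SDW arrays alone.

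The ligands below that call on all 8 arrays were mainly products of stimulated T cells. They were IL2, IL4, IL5, IL13, IL17A, IL21, IL22 and IL26, together with IL12A, IL12B and IL23A, the subunits by which antigen-presenting cells direct T cells, and both probes each of IL6 and CXCL8, messengers of acute inflammation. IL7, a survival factor for lymphocytes, was detected on 1 array (control 4). IL27, a cytokine of activated myeloid cells, was detected on 3 (control 1, SDW 2 and SDW 4). Among receptors, IL1R1, IL12RB2, IL13RA1 and IL18R1 were below the call on every array, IL6ST was detected on 2 arrays, and IL2RG on the same 3 arrays as IL27. By the weaker flag of a signal significantly above background, 1 CXCL8 probe and IL27 were each positive in 3 controls and 4 SDW animals. IL2RG was positive in 4 and 4, IL6ST in 4 and 3, and IL18R1 in 2 and 4, while the other probes of this paragraph were positive on fewer arrays. The descriptions give the IL23A and IL1R1 probes as partial matches only, at 10% and 65%. A probe below the call gives only a bound, so these genes may still be expressed.

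The secreted antagonist IL1RN and the chemoattractant IL16 were measured on every array. IL1RN, which occupies the IL1 receptor without signalling, stood at 9.65, 7.14, 7.86 and 7.18 in controls 1 to 4 and at 7.81, 8.02, 7.23 and 8.09 in SDW animals 1 to 4. Control 1 lay above all other animals and the diets overlapped. The difference was -0.17 with a standard error of 0.52, and without control 1 it turned to 0.39. IL16, which attracts CD4-bearing cells, varied little, at 7.22, 7.01, 7.19 and 6.68 in controls and 7.18, 7.0, 6.98 and 6.88 in SDW animals. Its difference was -0.02 with a standard error of 0.22, and the sign turned under several settings.

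IL18, an inducer of interferon gamma that needs cutting by CASP1, spread widely among controls. Its levels were 0.18, 1.42, 2.65 and 2.19 in controls and 1.84, 0.83, 0.76 and 1.45 in SDW animals. The lowest and the 2 highest animals were all controls, so the SDW animals lay inside the control range, and the difference was -0.39 with a standard error of 0.50. It came to -0.04 without control 3 and -0.87 without control 1. Within slides 1, 2 and 3 it was -1.85, 0.04 and 1.27, so the slides did not share a sign.

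IL10, a cytokine that restrains inflammation, was at -0.03, -0.47, -0.14 and 0.06 in controls and 0.02, 0.83, 0.04 and -0.32 in SDW animals. SDW 2 alone lay clearly above the rest, and the difference of 0.29 (standard error 0.28) came to 0.06 without it. IL15, which sustains natural killer and memory T cells, was at -1.78, -1.88, -1.57 and -2.39 in controls and -0.59, -2.09, -2.25 and -1.16 in SDW animals. SDW 1 and SDW 4 lay above every control, and SDW 2 and SDW 3 lay within the control range. Its difference of 0.39 (standard error 0.38) came to 0.07 without SDW 1, and the probe was detected in 3 animals of each diet. IL1A, an alarm cytokine kept inside cells, ranged from -2.18 to -1.60 in controls and from -2.08 to -1.57 in SDW animals, differing by 0.18 (standard error 0.23). It was detected in 3 controls and 4 SDW animals, near the lower end of detection. Across these 6 measured ligands 3 were higher and 3 lower in SDW animals, with a median difference of 0.08, where the median over all 17352 tested probes was 0.02. With 1 array left out the ligand median ran from 0.00 to 0.21.

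**Figure D2:**
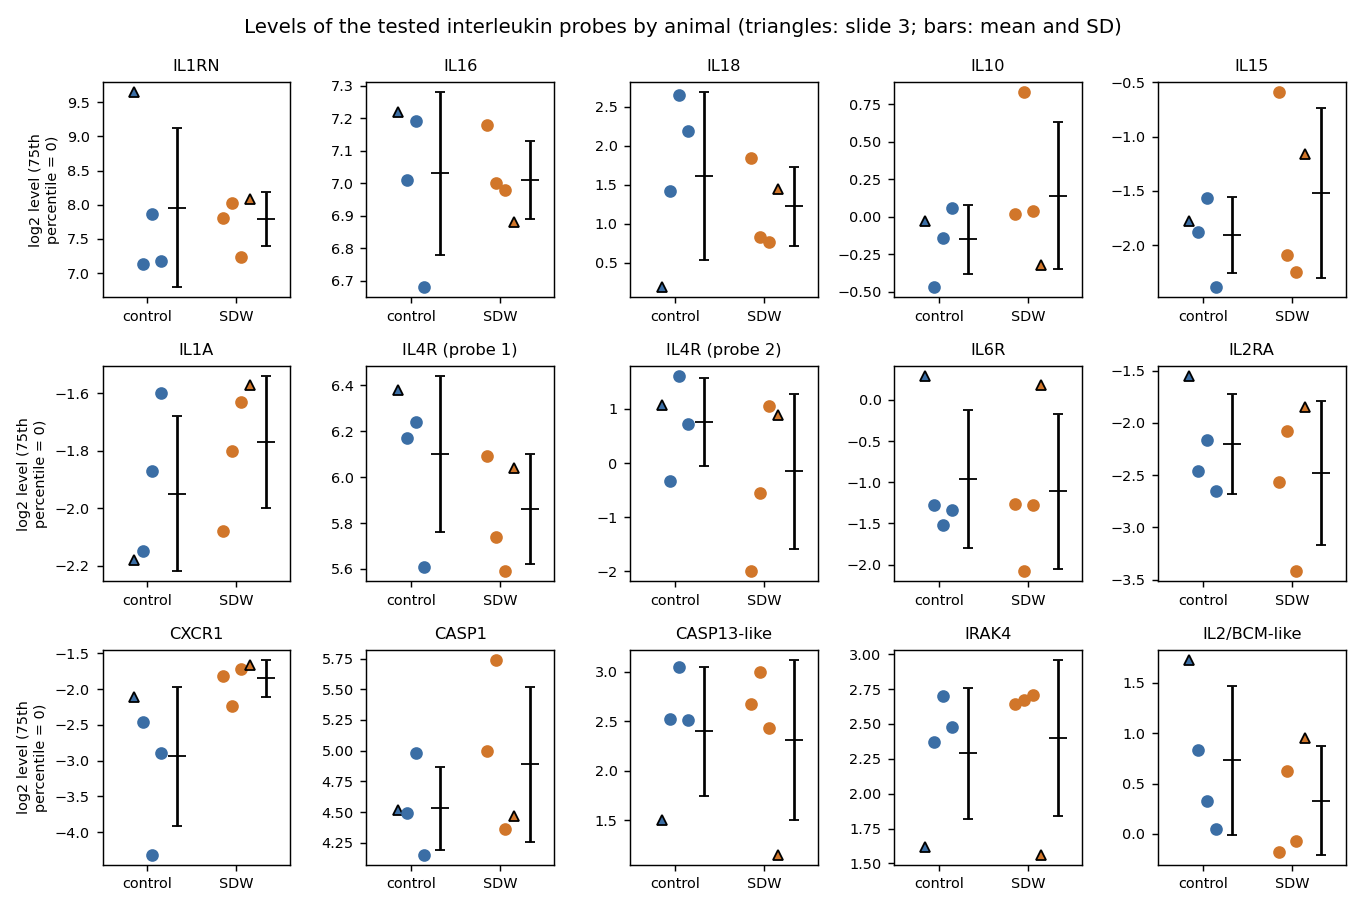
Level of each of the 15 tested probes in each animal (log2, relative to the 75th percentile of the array), by diet, with the mean and SD of 4 animals beside the points. Triangles mark control 1 and SDW 4, the arrays of slide 3, which were the highest for IL1RN, IL6R, IL2RA and IL2/BCM-like and the lowest for IRAK4 and CASP13-like; y axes differ between panels.

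IL4R, the chain shared by the IL4 and IL13 receptors, was covered by 2 probes that were detected on all 8 arrays. The probe built from a transcript cluster (probe 1 in the plot of levels) was steady, at 6.38, 6.17, 6.24 and 5.61 in controls and 6.09, 5.74, 5.59 and 6.04 in SDW animals. Its difference was -0.24 with a standard error of 0.25, and came to -0.14 without control 1 and -0.40 without control 4. The probe built from the reference mRNA (probe 2) was at 1.07, -0.34, 1.61 and 0.72 in controls and -2.0, -0.56, 1.06 and 0.88 in SDW animals. SDW 1 was far below every other animal on this probe, while on the other probe it lay among the controls. The difference of the second probe was -0.92 (standard error 0.67; limma, unadjusted p = 0.200), came to -0.30 without SDW 1, and was -1.34 with slide as a block (standard error 0.47; limma, unadjusted p = 0.0179; adjusted p = 0.732). Both probes were thus lower in SDW animals by different amounts, and neither passed the test. With normexp background correction the second probe came to -0.44 (75th percentile) or -0.38 (quantile normalization).

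IL6R, the chain that binds IL6, was at 0.29, -1.28, -1.52 and -1.34 in controls and -1.26, -2.08, -1.27 and 0.18 in SDW animals. Control 1 and SDW 4 stood above the other 6 animals, 1 in each diet, and the difference was -0.14 with a standard error of 0.53. It turned to 0.27 without control 1 and to 0.18 without SDW 2. IL2RA, the chain that gives activated and regulatory T cells high affinity for IL2, was detected in 1 control and 3 SDW animals, yet its mean level was -2.20 ± 0.48 for controls and -2.48 ± 0.69 for SDW animals (SD, n = 4 each). The count of detections and the mean thus pointed in opposite directions, and the difference of -0.28 had a standard error of 0.38.

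The CXCR1 probe, for a receptor of CXCL8 on neutrophils, was detected in SDW animals alone. Its levels were -2.11, -2.46, -4.32 and -2.89 in controls and -1.81, -2.23, -1.72 and -1.66 in SDW animals. The probe was well above background in 4 of 4 SDW animals and 0 of 4 controls, a pattern that 0.0634% of the tested probes (11 of 17352) showed, with 0 probes in the opposite pattern. It passed the filter of 4 arrays only through this pattern, so nothing is read from that share or from its p-values. Control 1 lay above SDW 2, so the diets overlapped by that pair. The dimmest probe at that call lay at -1.75, -2.28, -2.06 and -2.64 in controls and -2.76, -2.89, -2.04 and -2.0 in SDW animals. The call thus depends partly on the array, as control 1 missed it at -2.11 and SDW 2 reached it at -2.23. The means were -2.94 ± 0.97 (SD, n = 4) and -1.85 ± 0.26 (SD, n = 4), and the difference of 1.09 carried an error of 0.43 (standard error; limma, unadjusted p = 0.0311; adjusted p = 1.00). Because no control value reached the call of well above background, the measured difference is uncertain in size. For each control the higher of the probe's own value and the dimmest probe well above background on that array was also taken. The SDW mean was then 1.26-fold higher. That value has no error attached and rests on the same detection calls, so it only describes these arrays. Control 3, the lowest animal, carried much of the measured difference, which was 0.63 without it and 1.37 without control 1. Within slides 1, 2 and 3 it was 2.34, 0.87 and 0.46, and with slide as a block it was 1.29 (standard error 0.35; limma, unadjusted p = 0.00478; adjusted p = 0.732).

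Several values limit the CXCR1 reading. With normexp background correction the difference came to 0.05. By the weaker flag of a signal significantly above background, the probe was positive in 3 controls and 4 SDW animals. The probe's description rests on a match of a transcript cluster to 7% of the gorilla protein. None of its 3 forward reading frames is open, which also holds for the tested IL1RN and IL16 probes. The probe that the files name IL8RB, the older symbol of CXCR2 and the second CXCL8 receptor, has no interleukin in its description and was looked up after the CXCR1 values were seen. It was detected on all 8 arrays, at 8.05, 7.41, 7.69 and 7.35 in controls and 7.18, 6.97, 6.88 and 7.43 in SDW animals, lower by the fitted -0.51 (standard error 0.25; limma, unadjusted p = 0.0647; adjusted p = 1.00). Of 9 listed neutrophil markers 5 were measured (ALOX5AP, LTF, MMP9, NCF1 and TREM1), all lower in SDW animals with a median difference of -0.76 and 0 past the threshold. Their mean level relative to each gene's own mean ran from -0.31 to 1.11 in controls and from -0.74 to 0.23 in SDW animals. The sign of the CXCR1 difference depends on how the probe passed the filter, so it is not set against that of these markers. Their part in the CXCR1 values was not tested. In whole blood, fewer cells of a type and less RNA per cell cannot be told apart.

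**Figure D3:**
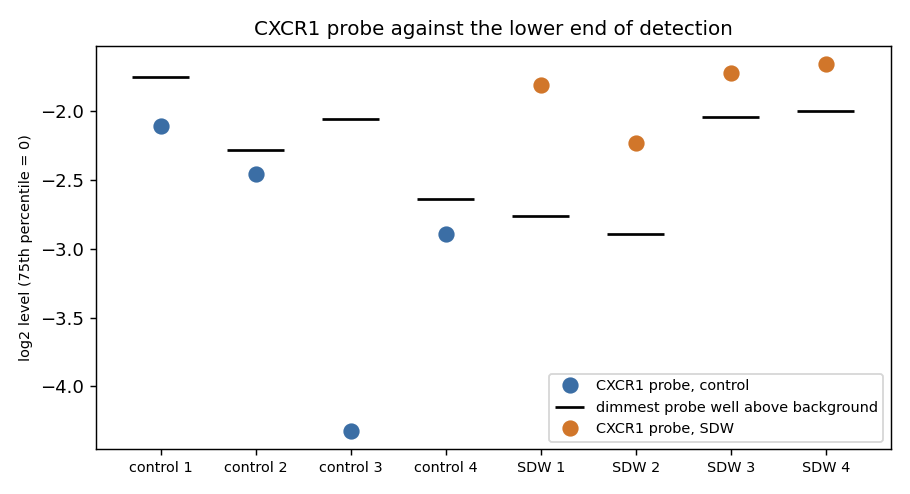
Level of the CXCR1 probe in each animal (points, log2 relative to the 75th percentile of the array) beside the dimmest probe well above background on the same array (lines). All 4 SDW points lie above their line and all 4 control points below it, while the points of control 1 (-2.11) and SDW 2 (-2.23) overlap between diets.

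Over the 4 measured receptor genes 3 were lower and 1 higher in SDW animals, with a median difference of -0.19, IL4R being read from the probe of higher level. That median came to 0.11 without control 1, -0.39 without SDW 4, and -0.06 or -0.03 with normexp, so it has no settled sign. CXCR1 reached the minimum of 4 arrays through the SDW animals alone, so its place among the tested probes already depends on its being higher there.

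The probes of the signalling class were measured throughout. CASP1 was at 4.52, 4.49, 4.98 and 4.15 in controls and 5.0, 5.74, 4.36 and 4.47 in SDW animals. SDW 2 was the highest animal and the other SDW values lay close to the control range, with a difference of 0.36 (standard error 0.34) that came to 0.07 without SDW 2. The probe matched to 25% of bovine caspase 13, a relative of CASP1, was at 1.5, 2.52, 3.05 and 2.51 in controls and 2.67, 3.00, 2.43 and 1.15 in SDW animals. Its difference was -0.09 (standard error 0.45). IRAK4, the kinase that carries the signal of IL1 family and Toll-like receptors, was at 1.62, 2.37, 2.70 and 2.48 in controls and 2.64, 2.67, 2.71 and 1.56 in SDW animals. Its difference was 0.10 (standard error 0.34). For both the CASP13-like probe and IRAK4, control 1 and SDW 4 were the lowest animals of all. The last probe, matched to 16% of a human fusion transcript of IL2 and BCM, ranged from 0.05 to 1.73 in controls and from -0.18 to 0.95 in SDW animals, differing by -0.40 (standard error 0.40). It came to -0.07 without control 1 and -0.63 without control 4. Of these 4 probes 2 were higher and 2 lower, with a median difference of 0.01 that ran from -0.15 without SDW 2 to 0.34 without SDW 4.

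The diets were compared over all 17352 probes detected on at least 4 arrays, and the members were read from that fit. None of the 15 tested members passed an adjusted p of 0.05 in limma, and 0.0% of all tested probes did. At an unadjusted p under 0.05 there were 251 of all tested probes (1.45%), and CXCR1 was the 1 member of 15 among them. Since CXCR1 was tested only because it was detected in SDW animals, nothing is read from that count. Ranges free of overlap between diets were found for 0 of 15 members, against 0.985% of all tested probes. With slide as a block 0 members passed, again with 0.0% of all probes. In that fit 2 members, the second IL4R probe and again CXCR1, had an unadjusted p under 0.05, where 6.59% of all tested probes did. As CXCR1 is counted here too, nothing is read from this count either. Of 14 measured member genes 6 were higher and 8 lower in SDW animals, with a median of -0.05 that ran from -0.09 to 0.09 with 1 array left out.

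**Figure D4:**
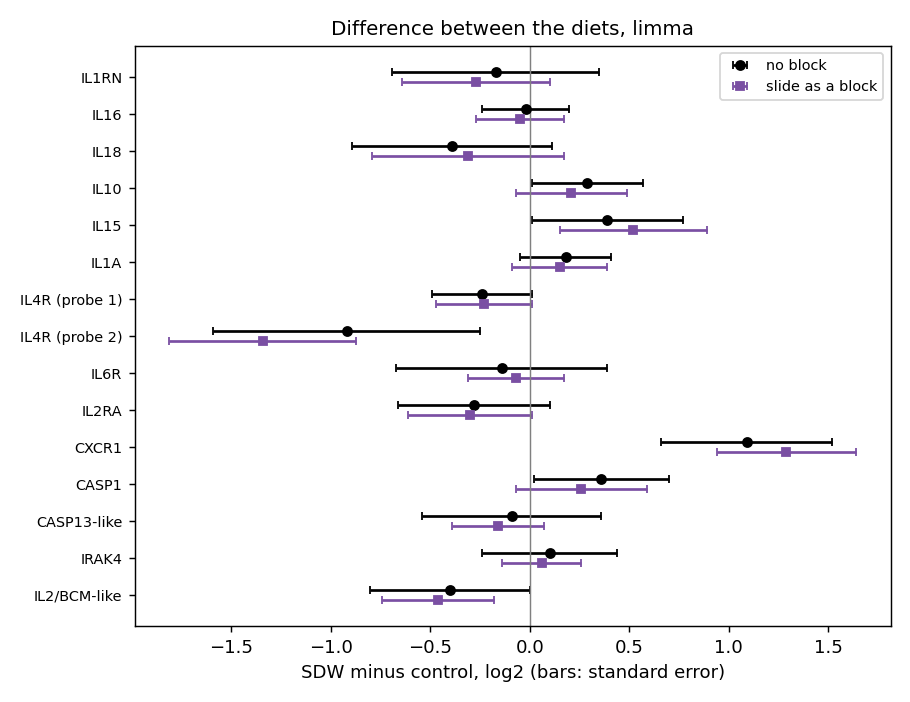
Difference between SDW and control animals (log2) for the 15 tested probes, with the standard error as bars, without a block (circles) and with slide as a block (squares). CXCR1 at 1.09 and 1.29, whose control values were not well above background, and the second IL4R probe at -0.92 and -1.34 lie farthest from 0. None passed the adjusted threshold.

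Part of the spread among animals went with the slide. Each of the 3 slides carried both diets. Slide 1 held control 3 with SDW 2 and 3, slide 2 held controls 2 and 4 with SDW 1, and slide 3, scanned on a different day, held control 1 with SDW 4. Since each animal was on 1 slide, a slide cannot be told apart from the animals it held, nor slide 3 from its scan day. In limma's F test of slide within the fit of diet and slide, 3 of 15 members passed an adjusted p of 0.05, namely IL6R (0.012), the CASP13-like probe (0.0221) and IRAK4 (0.040), where 11.2% of all tested probes passed. The same 3 passed with quantile normalization and with normexp plus quantile normalization, and 0 did with normexp and the 75th percentile, where 4.31% of all probes passed. Both slide 3 animals lay above or both below the other 6 for 6 of 15 members, against 32.7% of all tested probes, so this was shared with the arrays at large. Above were IL1RN, IL6R, IL2RA and the IL2/BCM-like probe, and below were IRAK4 and the CASP13-like probe. The neutrophil markers were highest in control 1 (1.11), while SDW 4 was at 0.23, and their part in the IL1RN and IL6R values was not tested.

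Other genes of the pathway were taken from a list of 47 symbols, of which 3 are members. Of the remaining 44, 18 had a probe named here and 13 were detected on at least 4 arrays. None passed an adjusted p of 0.05 in limma and none had an unadjusted p under 0.05. In all 3 were higher and 10 lower in SDW animals, with a median difference of -0.19, where 9176 of all tested probes were higher and 8176 lower with a median of 0.02. Among those of highest level, NFKBIA, the inhibitor that holds NF-kappaB in the cytoplasm, stood at 8.43 ± 0.55 for controls and 8.19 ± 0.32 for SDW animals (SD, n = 4 each). MYD88, the adaptor upstream of IRAK4, was at 8.52 ± 1.04 and 8.25 ± 0.98 (SD, n = 4 each). The kinase JAK1 differed by 0.08 with a standard error of 0.32. The transcription factors STAT2 and STAT5B differed by -0.15 and -0.30, with standard errors of 0.30 and 0.23. Between slides, TYK2, MYD88 and REL passed the F test (limma, adjusted p = 0.0173, 0.0498 and 0.0469), which is 3 of 13 genes where 11.2% of all tested probes passed. MYD88 and REL lay just under the threshold. TRAF6, which acts after IRAK4, was at 3.47 in control 4 against -0.77 to 0.02 in the other 7 animals.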

How the data were processed

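Per the file headers, the authors' deposited files are linear spot intensities from Agilent Feature Extraction 10.1.1.1 (9.5.3.1 per the submitters' processing notes). The processed signal is background-subtracted and detrended within an array, given a surrogate close to background, and without normalization between arrays. The authors' deposited value table also holds intensities, by a method not given in the sources used here; 7 of its 8 columns matched a scanner file labelled as a different replicate of that diet, so it served only to compare diets. Spots of a probe were averaged, leaving out control and outlier spots, and log2 taken minus the array's 75th percentile (signal 39.9 to 73.1). Per array 35.2% to 43.5% of probes were well above background, and 0 spots were saturated. The number of arrays limits the precision.

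Probes well above background on at least 4 of 8 arrays (17352) were tested in R 4.3.3 with limma 3.58.1, two-sided, Benjamini-Hochberg over those probes, threshold 0.05. A gene was read from its tested probe of highest mean level. In each class, the 8 genes of highest level, the 5 of smallest p and those with several tested probes were named, which took in all 14 measured genes; of pathway genes, the 6 of highest level and any with an unadjusted p under 0.05, of which 1 is not reported here. TYK2, REL and TRAF6 were named after their values were seen, as were the IL8RB probe and the slide test. Members and lists were chosen with earlier results of these data known. Pathway genes and markers were named through the RefSeq table of Sscrofa11.1 (accession 2032 probes, symbol 693, synonym 132, gene number 120) or a protein name in the description (488). No genome was used, so positions are not given. The p-values measure the spread between these animals, as the labels give no more on their housing or litters. The fit was also run on simulated data with independent noise, no slide effect and larger shifts than those measured here. That run does not bear on differences of the size seen here.

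Marker genes of blood cells were measured for neutrophils (5 of 9 listed), monocytes (3 of 4), T cells (5 of 7), B cells (1 of 5), cytotoxic cells (2 of 5), eosinophils and basophils (3 of 5) and platelets (2 of 5), and none of 5 erythroid markers was named on a tested probe. None passed the threshold. Alternatives were other normalizations, background correction, filters on dim probes, slide and replicate blocks, the value table, variance models, and each array or slide 3 left out.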

Additional observations from a re-analysis of the deposited data

Results flagged for a closer look

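Among 30 groups of 4 animals (15 probes in each diet), 2 held an animal far from the other 3, where chance sets 1 in 20 groups apart. IL6R was high in control 1 (0.29 on the log2 scale), and IRAK4 was low in SDW 4 (1.56). Both animals were on slide 3.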

How the results depend on the processing

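The count of called members was 0 under every alternative run, the replicate block (the labels' numbers as a block, also 0 of all probes) and the scaling on probes detected on all arrays (chosen after seeing the data) included. Over all probes the count was 0 except without both arrays of slide 3, where 1 probe, no member, passed. The count of probes at an unadjusted p under 0.05 ran from 162 (normexp and the 75th percentile) to 1143 (slide as a fixed block), against 251. Of the 15 probes 8 kept their sign throughout. IL16, near 0, turned to 0.01 with quantile normalization, the value table or array weights, to 0.02 with the median of each array and to 0.09 without slide 3. IL1A came to -0.01 with normexp and the 75th percentile. Under that setting IL15 came to 0.06 and IL2RA to -0.05, while the brighter CASP1 was at 0.34. IL1RN turned to 0.20 with array weights and 0.29 without slide 3, and the CASP13-like probe to 0.00 without slide 3. With 1 array left out, IL1RN ranged from -0.44 to 0.39, IL16 from -0.13 to 0.05, IL6R from -0.58 to 0.27, IL2RA from -0.48 to 0.04, IRAK4 from -0.12 to 0.38 and the CASP13-like probe from -0.38 to 0.30. The ligand median went from 0.08 to -0.09 over the 4 ligands detected on all 8 arrays. The share of members detected was 57.9% by the weaker flag, 28.9% on all 8 arrays, 50% on at least 1, and 34.2% to 39.5% with 1 array left out. The cause of these shifts was not tested, and for dim probes the signal over background is the limit. Deviations of same-numbered animals correlated at -0.17, 0.105, 0.333 and -0.379, and the numbers were not taken as pairs. These values cannot show whether animals were paired, as 7 of 8 value table columns matched a scanner file of another number. Under the replicate block 239 probes had an unadjusted p under 0.05 in limma.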

Other observations

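The letters AATAAA, a common polyadenylation signal, were searched on the strand printed in the files. They stood in 5 of the 15 tested member probes (33.3%) and 1 of the 23 others (4.35%), against 17.3% of all tested probes and 8.67% of all others. The median share of G and C was 38.3% in the tested member probes and 40.0% in the others. Probes that the files name IL18 and IL15 without an interleukin description were well above background on 1 and 0 arrays, where the member probes of these genes were so on 8 and 6.

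Among the marker lists of blood cells the median difference between SDW and control animals was 0.10 for monocytes (3 genes), -0.31 for T cells (5), -0.51 for B cells (1), -0.64 for cytotoxic cells (2), 0.82 for eosinophils, basophils and mast cells (3) and 0.03 for platelets (2). In limma 0 of these genes passed the adjusted threshold, and the diets overlapped in the mean level of each list.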
